A study of Homo sapiens with 372 samples.

Results

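After 2 h of celecoxib, 33 of the 63 A2780 cells in the deposited table carried the state annotation of transcriptional repression and 26 the control-like annotation, and these 59 cells, of 338 cells in the series, are compared here. Another 4 cells were annotated as transcriptional activation and are described apart. The states were chosen by measured values. The authors trained a random forest on the expression profiles of reference cells. Those were untreated (control-like), had celecoxib for 16 h (repression, called suppressed below) or had celecoxib plus paclitaxel for 16 h (activation). Each cell was given the state with the highest predicted probability. A difference in expression between the states is therefore a description of what the annotation separated, and carries no test.

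A2780 is an established cell line from a human ovarian carcinoma. Cells were captured on the Fluidigm C1 system, with 1 capture code per condition in the labels, and sequenced with Smart-seq2, a method that reverse transcribes whole polyadenylated transcripts, and no culture was labelled as a replicate. The celecoxib cells received 75 µM for 2 h, the cells they are set against received no drug (45 control-like cells, 1 more untreated cell having been annotated as suppressed and left out), and the other celecoxib group received 75 µM for 16 h (61 cells, all suppressed). Cells with 5 nM paclitaxel for 16 h (31 suppressed and 23 control-like) and for 48 h (25 and 28) supplied the same state comparison under another drug. Each condition counts as 1 sample, so the SDs below are spreads over cells and no p-value was made from cells.

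Celecoxib is an inhibitor of cyclooxygenase 2, and it also raises free calcium and disturbs the endoplasmic reticulum at high doses. Cells under such stress, or short of amino acids, translate the transcription factor ATF4, which raises genes of amino acid synthesis and of aminoacyl-tRNA charging and also DDIT3, the gene of the transcription factor CHOP. Cycling cells make the DNA replication genes in S phase under E2F factors and the mitotic genes in G2 and M phase, when the DREAM complex no longer represses them through the cell cycle genes homology region of their promoters. A drop in total mRNA of a cell lowers every gene when values are scaled to an added spike-in RNA. For that reason each value is given on 2 scales here: the deposited E-value, log2(N/10 + 1) with N the TPM scaled to the spike-in, and the same-total E-value, for which the N of each cell were first brought to 1 common sum.

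Of 15 markers listed for A2780 and carcinoma cells 3 were in the table: the intermediate filament genes VIM and KRT18 and the chromatin remodeler gene ARID1A. VIM was detected in 23 of 33 suppressed and 23 of 26 control-like cells. Of 32 markers of blood and endothelial cells 1 was in the table, LYZ, at a mean same-total E of 0.15 in suppressed and 0.17 in control-like cells. Of 8 fibroblast markers 4 were in the table, and COL3A1 and THY1 passed the detection limit. Between the states, mean same-total E differed by 0.86 for COL3A1 and by -0.45 for THY1, suppressed minus control-like as in every difference below. PTGS1 and PTGS2, which encode the cyclooxygenases, were not analysed here.

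Transcriptomic abundance, the sum of N over the 9664 genes, separated the annotated states with some overlap. On the log2 scale relative to the untreated median, suppressed cells ranged from -1.46 to -0.64 with a median of -0.995 (SD 0.23, n = 33). Control-like cells ranged from -0.83 to 0.28 with a median of -0.38 (SD 0.29, n = 26). The medians differed by -0.61, so that a control-like cell held 1.53-fold more transcript than a suppressed one at the median. Every suppressed cell and 23 of 26 control-like cells lay below the untreated median. The states overlapped between -0.83 and -0.64, where 10 suppressed and 5 control-like cells lay, which are the cells nearest to the border of the annotation in this measure. Celecoxib for 16 h gave a lower median still, -1.52 (range -2.38 to -0.72), and the 2 h suppressed cells lay, at the median, between their control-like neighbours and the reference cells from which the repression state was learned.

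**Figure D1:**
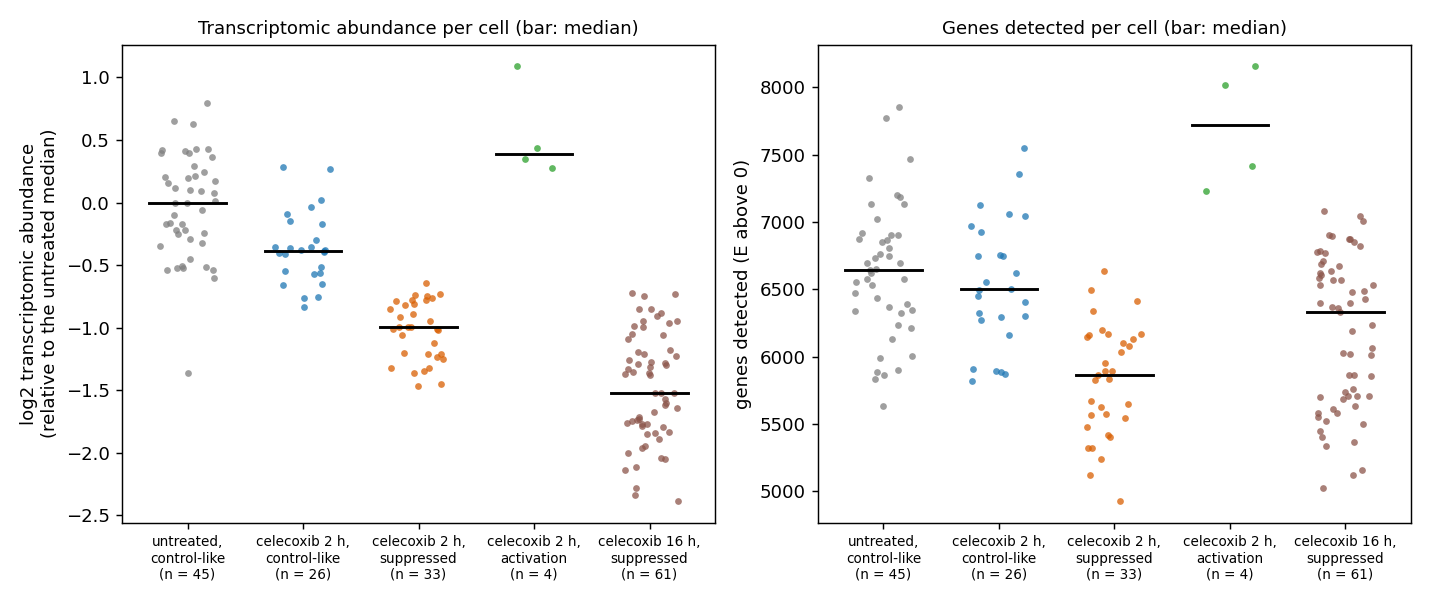
Transcriptomic abundance (log2, relative to the untreated median, left) and number of genes with E above 0 (right) for each cell, with a bar at the median of each group. Suppressed cells at 2 h (median -0.995) lie below control-like cells (median -0.38), with 10 and 5 cells in the range that both share.

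Genes detected followed the same order over the 2 h states and the untreated cells, but not at 16 h of celecoxib (median 6329). Suppressed cells had between 4927 and 6639 genes above 0 (median 5861) and control-like cells between 5820 and 7548 (median 6500), against a median of 6642 in untreated cells. Without read totals the depth of a cell is unknown. Median detection was lower in the 2 h state with the lower abundance, and how far depth shaped it was not tested. A weakly expressed gene is recorded at 0 more often in the suppressed cells on either scale. How much of a difference in a weak gene comes from this was not tested.

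The number of genes that separated the states depended on the scale. On the deposited scale, 2877 of 8802 genes (32.7%) were lower in suppressed cells by over 1.5-fold and 13 (0.148%) were higher, with a median difference of -0.39 over all genes. At the same total, 758 genes (8.61%) were lower and 114 (1.3%) were higher, with a median of -0.08. That balance turned when ratios of linear means were used in place of differences in mean E, with 377 genes lower and 426 higher at the same total. All 758 were also lower on the deposited scale, and of the 2877 genes 87 were above 0 in difference at the same total. The share of genes lower at the same total varied with expression level: it was 2.32% for genes with a mean E under 1, 18.0% for those between 2 and 3, and 1.38% for those of 6 or more. The fold limit was applied to differences in mean E, which understate the change of weak genes.

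The largest falls at the same total were those of IMMP2L, MPC1 and PRIM1. IMMP2L, a subunit of the mitochondrial inner membrane peptidase, was detected in 12 of 33 suppressed and 20 of 26 control-like cells, with mean same-total E of 1.21 ± 1.79 (SD) and 2.89 ± 1.77 and a difference of -1.68. MPC1, of the mitochondrial pyruvate carrier, had a median of 0.80 in suppressed cells (range 0.00 to 4.50) and 3.40 in control-like cells (0.00 to 5.18), a difference in means of -1.52. It was detected in 19 of 33 and 22 of 26 cells. The lowest values were 0 in both states, and detection was lower in the suppressed cells, as it was over all genes.

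CCNB1, cyclin B1 of the mitotic kinase, ranged from 0.00 to 7.40 in suppressed cells with a median of 3.52, from 0.00 to 6.80 in control-like cells with a median of 4.55, and from 3.29 to 7.54 in untreated cells with a median of 6.04. It was the second largest fall on the deposited scale (-1.91) and differed by -1.41 at the same total. KNSTRN, a protein of the mitotic spindle, and CENPS, of the centromere, differed by -1.47 and -1.44 at the same total. ATG5, needed for autophagosome formation, was detected in 18 of 33 suppressed cells and in 26 of 26 control-like cells (difference -1.44). ACAT2, the cytosolic thiolase at the start of sterol synthesis and among the 10 largest falls as deposited, was 1.75 ± 1.76 against 3.15 ± 1.13 (difference -1.39). RSU1, an adhesion-linked RAS suppressor, and ZMAT5, a component of the minor spliceosome, each differed by -1.40.

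Rises in mean E were fewer than falls, though not as ratios of linear means at the same total, and several of the largest were in genes not detected in many of the cells. TMSB4X, which encodes an actin-sequestering peptide, headed them on both scales, with differences of 1.38 (deposited) and 1.59 (same total). It was detected in 13 of 33 suppressed and 8 of 26 control-like cells, with a median of 0.00 in both states and a highest value of 10.81 and 8.72. The gene has many near-identical copies in the genome, so its value is uncertain. HAPLN1, a linker of hyaluronan to proteoglycans, followed with 1.32 (15 of 33 and 8 of 26 cells). LAMB2, a laminin chain of basement membranes, had a median of 3.47 in suppressed, 1.43 in control-like and 1.71 in untreated cells, and a difference in means between the states of 1.31. PTPRK, a receptor tyrosine phosphatase of cell contacts, differed by 1.11 and was detected in 26 of 33 and 15 of 26 cells. BAZ2B, a bromodomain protein, differed by 1.02.

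**Figure D2:**
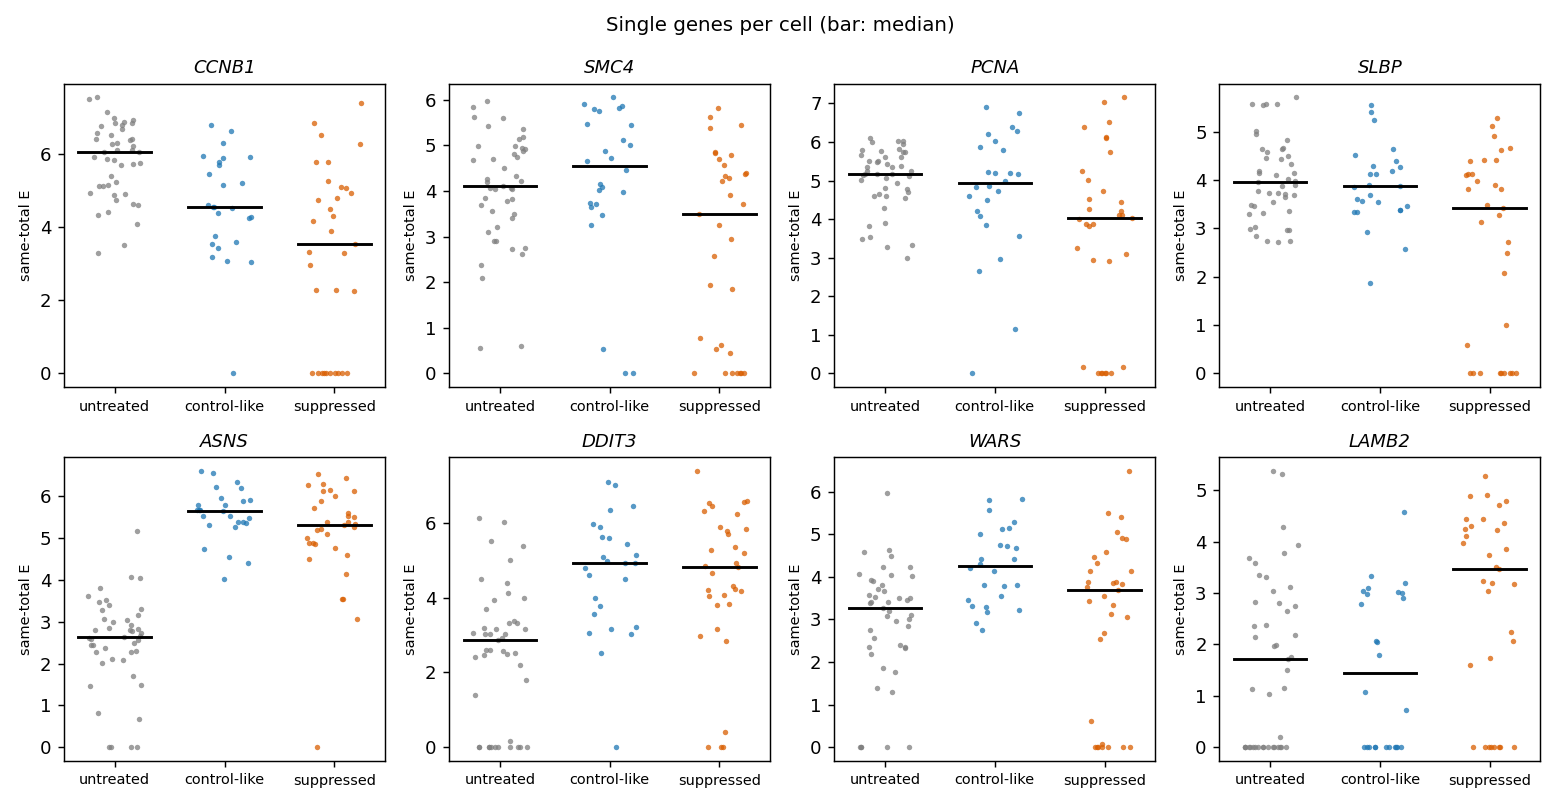
Same-total E of 8 genes in each untreated, control-like (2 h) and suppressed (2 h) cell, with a bar at the median. CCNB1, SMC4, PCNA and SLBP have more suppressed cells near 0, ASNS and DDIT3 are raised over untreated cells in both states, and LAMB2 is higher in the suppressed cells.

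The cell cycle lists differed most between the states. Of 42 measured S phase genes, 20 were lower in suppressed cells at the same total and 0 higher (median -0.58), against 8.61% and 1.3% of all genes (median -0.08). Of 53 G2/M genes, 24 were lower and 1 was higher (median -0.53); the exception was CTCF, a chromatin insulator protein, at 0.60. Since the share of lower genes varied with level, the lists were also read within 1 band of it. Among genes with a mean same-total E of 1 to 4, 14.6% of 4276 were lower, against 16 of 31 S phase genes and 20 of 34 G2/M genes. As ratios of linear means, in place of differences in mean E, the list medians were -0.35 for S phase and -0.41 for G2/M.

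In S phase, PRIM1, the catalytic subunit of DNA primase, was detected in 10 of 33 suppressed and 19 of 26 control-like cells (difference -1.51 at the same total). SLBP, which binds the stem loop of histone mRNA, was between 0.00 and 5.29 in suppressed cells (median 3.43) and between 1.88 and 5.56 in control-like cells (median 3.88), a difference in means of -1.23. PCNA, the sliding clamp of DNA polymerase, had means of 3.57 ± 2.31 and 4.69 ± 1.63 against 5.03 ± 0.81 in untreated cells. Of the 3 most abundant members, NASP, a histone chaperone, differed by -0.11, MRPL36, a mitochondrial ribosomal protein, by -0.24, and HELLS, a chromatin remodeler of replicating DNA, by -0.63.

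Among the G2/M genes, SMC4, a core subunit of condensin, had a median of 3.50 in suppressed (range 0.00 to 5.82), 4.56 in control-like (0.00 to 6.05) and 4.11 in untreated cells. Its difference between the states was -1.37. NDC80, of the outer kinetochore, was detected in 10 of 33 and 17 of 26 cells (difference -1.29). CKS1B and CKS2, small subunits that bind cyclin-dependent kinases, stayed among the most abundant genes of the list in both states, with means of 6.97 and 7.47 for CKS1B and of 7.62 and 7.92 for CKS2. CDC20, an activator of the anaphase-promoting complex, was far below untreated cells in both: its mean was 1.77 in suppressed, 2.19 in control-like and 4.75 in untreated cells.

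Promoter sequence is shown for members of each list that hold the element for which the list is known, to set the elements beside the values. These members are the most abundant of those with a match before the gene start, apart from genes on a left-out chromosome. The sequences are from RefSeq (GRCh38.p14), end no later than the base before the annotated gene start, and read 5′ to 3′ on the strand of the gene, with matches on either strand in capitals. The letters searched for the cell cycle genes homology region were TTTGAA, and for E2F TTTNGCGC.
CKS2: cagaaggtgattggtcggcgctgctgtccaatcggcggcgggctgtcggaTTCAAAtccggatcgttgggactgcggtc
CKS1B: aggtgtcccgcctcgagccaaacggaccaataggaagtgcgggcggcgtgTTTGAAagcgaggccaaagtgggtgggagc
HELLS: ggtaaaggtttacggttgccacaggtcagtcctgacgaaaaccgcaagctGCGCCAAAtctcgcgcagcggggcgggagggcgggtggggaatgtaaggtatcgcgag
MCM7: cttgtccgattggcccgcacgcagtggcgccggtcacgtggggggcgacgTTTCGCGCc

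The stretch of CKS2 lies at chr9:89311116-89311194 (+), that of CKS1B at chr1:154974601-154974680 (+), that of HELLS at chr10:94545662-94545769 (+) and that of MCM7 at chr7:100101398-100101456 (-). In windows from 250 bases before to 50 after the gene start, TTTGAA was present in 30 of the 43 G2/M genes that matched a promoter, in 1 of 33 S phase genes and in 15.4% of all 27305 promoters. TTTNGCGC was present in 9 of 33 S phase genes, in 3 of 43 G2/M genes and in 1.83% of all promoters. Among the 6940 measured genes with a promoter, TTTGAA was present in 9.52% and TTTNGCGC in 3.39%. MCM7, a subunit of the replicative helicase, was lower in both states (3.01 in suppressed and 3.29 in control-like cells) than in untreated cells (4.28) on the same-total scale. A match describes the letters of a window and not the binding of a factor.

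Per cell, the lists were spread widely within each state. The mean same-total E over the S phase genes ranged from 0.54 to 3.56 in suppressed cells (median 1.52) and from 1.08 to 3.69 in control-like cells (median 2.28), with an untreated median of 2.59. The G2/M mean ranged from 0.88 to 4.07 (median 1.54) and from 1.18 to 4.32 (median 2.05), with an untreated median of 2.73. Of the suppressed cells, 19 of 33 lay below the untreated lower quartile of both lists, compared with 9 of 26 control-like and 7 of 45 untreated cells. A smaller number went the other way: 3 suppressed cells exceeded the highest untreated cell in the S phase mean and 1 in the G2/M mean. So did 5 and 2 control-like cells, and 3 and 5 of the 16 h celecoxib cells. The medians of S phase and G2/M were 1.56 and 1.62 in the 16 h celecoxib cells, which were the reference for the suppressed state, and 1.52 and 1.72 in the combination cells, which were the reference for activation.

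**Figure D3:**
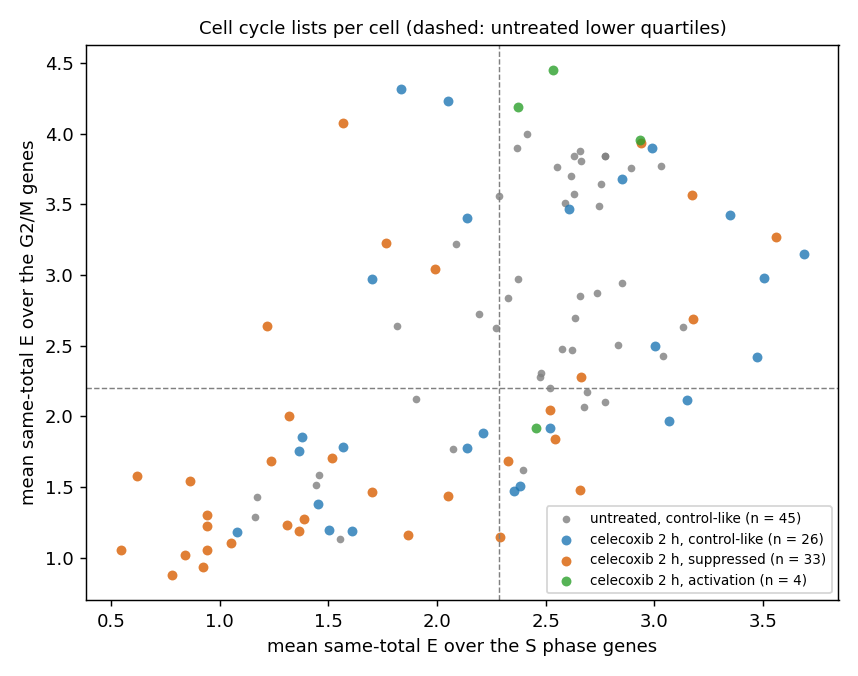
Mean same-total E over the S phase genes (horizontal) and the G2/M genes (vertical) in each untreated cell and each cell of 2 h celecoxib, colored by annotated state, with dashed lines at the untreated lower quartiles. The lower left corner holds 19 of 33 suppressed, 9 of 26 control-like and 7 of 45 untreated cells.

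The difference in the cell cycle lists did not hold where the abundances overlapped. Among the 10 suppressed and 5 control-like cells between -0.83 and -0.64, the list medians at the same total were 0.27 for S phase and 0.33 for G2/M, with a median over all genes of 0.04. CCNB1 differed by 0.29 and PCNA by 1.11 in these cells, whereas SMC4 (-1.25), KNSTRN (-0.96) and ACAT2 (-0.54) stayed lower in the suppressed cells. Genes detected also went the other way there, with a median of 6150 in the suppressed and 5886 in the control-like cells. With 5 control-like cells, these values carry little precision.

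ATF4 and CHOP target genes were higher than in untreated cells in both states. At the same total, 23 of 40 genes of the list were higher in suppressed than in untreated cells (background 3.98% higher and 14.8% lower) and 30 of 40 were higher in control-like cells (background 5.34% higher and 6.76% lower), with 0 lower in either. The list medians were 0.70 and 1.20, beside -0.07 and 0.00 over all genes. Both comparisons use the same untreated cells. Between the states 6 of 40 were lower and 0 higher, with a median of -0.25, beside 8.61% and 1.3% of all genes. In the band of mean E from 1 to 4, 2 of 21 were lower (9.52%), a smaller share than the 14.6% of all genes there. The list median between the states was 0.21 at capture sites 1 to 48 and 0.13 among the cells of shared abundance, so it kept no common sign.

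ASNS, asparagine synthetase, ranged from 0.00 to 6.53 in suppressed cells (median 5.33), from 4.02 to 6.61 in control-like cells (median 5.66) and from 0.00 to 5.17 in untreated cells (median 2.64). Its mean was above that of untreated cells by 2.62 and 3.09. DDIT3 had medians of 4.81, 4.93 and 2.86 in the same order, and DDIT4, an inhibitor of mTORC1 signalling, of 4.18, 3.91 and 0.00. CHAC1, which degrades glutathione, was detected in 27 of 33 suppressed, 20 of 26 control-like and 9 of 45 untreated cells, and was thus raised in both. The states differed by -0.48 for ASNS, by -0.21 for DDIT3, by -0.23 for DDIT4 and by 0.27 for CHAC1, all within the SD over cells.

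WARS and NUPR1 differed most between the states within this list, by -1.24 and -0.91. WARS, tryptophanyl-tRNA synthetase, had a mean of 3.01 ± 1.99 in suppressed, 4.25 ± 0.90 in control-like and 2.93 ± 1.38 in untreated cells. NUPR1, a small stress-induced chromatin protein, was detected in 9 of 33 suppressed and 10 of 26 control-like cells, but its highest value was 1.23 in the former and 3.66 in the latter, against 0.09 in untreated cells. EIF4EBP1, a repressor of cap-dependent translation, had medians of 6.28, 6.79 and 5.70, and GARS, glycyl-tRNA synthetase, differed by -0.38 between the states. The element of ATF4 with C/EBP factors was searched as TGATGNAA. Members that hold it, chosen in the same way as for the cell cycle lists, are shown for comparison with the values above.
ASNS: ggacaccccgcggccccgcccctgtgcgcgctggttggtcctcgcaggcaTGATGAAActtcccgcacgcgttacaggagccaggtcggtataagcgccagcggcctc
HERPUD1: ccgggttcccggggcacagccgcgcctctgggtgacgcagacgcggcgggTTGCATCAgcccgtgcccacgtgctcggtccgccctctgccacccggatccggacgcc

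The stretches lie at chr7:97872419-97872526 (-) and chr16:56931916-56932023 (+). TGATGNAA was present in 5 of 26 list members that matched a promoter, in 3.67% of all promoters and in 1.585% of those of measured genes. HERPUD1, which takes part in degrading proteins of the endoplasmic reticulum, had means of 3.35 in suppressed, 3.95 in control-like and 3.09 in untreated cells.

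The other stress lists separated the states little, beside 8.61% of all genes lower and 1.3% higher between the states. Of 30 endoplasmic reticulum chaperones and XBP1 targets, 3 were lower (median -0.14), among them DERL1 of the same degradation pathway (-0.96). HSPA5, the main chaperone of the compartment, differed by 0.46 between the states, at 4.80 and 4.34 against 4.37 in untreated cells. Of 26 heat shock genes 2 were lower between the states (median 0.01), with DNAJB1 at -0.80, and the list was below untreated cells in both, with 10 and 9 genes lower and medians of -0.47 and -0.48 (14.8% and 6.76% of all genes were lower). Of 33 immediate early genes, 2 were higher in suppressed cells and 0 lower: BTG1, an antiproliferative gene (0.84), and DUSP6, a phosphatase of ERK (0.62). FOS, the best known of them, was spread over the cells (3.54 ± 2.06 and 3.33 ± 2.26). Of 21 p53 targets, 2 were lower (median -0.14).

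In the list of cholesterol synthesis and uptake, 6 of 23 genes were lower (8.61% of all genes), 0 were higher and the median was -0.39. In the band of mean E from 1 to 4 it was 5 of 12, against 14.6% of all genes. Besides ACAT2 it included HSD17B7, an enzyme of the later steps, which was detected in 9 of 33 suppressed and 18 of 26 control-like cells (difference -1.24). FDPS, which makes farnesyl diphosphate and was the most abundant gene of the list, differed by -0.49, and EBP, a sterol isomerase, by 0.51. Against untreated cells the list median was -0.11 in suppressed and 0.27 in control-like cells.

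Most ribosomal and respiratory genes were lower as deposited and near a difference of 0 at the same total. Of all genes with a mean E of 5 to 6, 69.9% were lower as deposited, and of those of 6 or more, 70.6%, and most genes of these lists are as abundant. At the same total 4.24% and 1.38% of the genes at these levels were lower, with medians of -0.07 and -0.02. Abundant genes weigh most in the sum that this scale makes equal, so small differences are not particular to these lists. Of 79 cytosolic ribosomal protein genes, 61 were lower in suppressed cells as deposited (median -0.69) and 0 at the same total (median -0.04). RPL41 and RPS18, the most abundant of them, differed by -0.64 and -0.73 as deposited and by 0.02 and -0.08 at the same total. Of 77 nuclear-encoded subunits of oxidative phosphorylation, 50 were lower as deposited (median -0.65) and 2 at the same total (median 0.00), NDUFS1 of complex I being lowest at -0.71. COX6C, the most abundant subunit, was 8.31 ± 0.38 in suppressed and 8.31 ± 0.29 in control-like cells, and 7.64 ± 0.38 in untreated cells. The proteasome (2 of 32 lower, median -0.13), glycolysis (1 of 18, median -0.12), splicing (0 of 50, median -0.01) and NRF2 lists (0 of 22, median -0.15) were likewise near the median of all genes. So were the lists of RNA polymerase II and Mediator (1 of 46 higher and 5 lower, median -0.07), of translation factors (2 of 41 lower, median -0.08), of nucleolar factors (3 of 49 lower, median -0.14), of actin and intermediate filaments (2 of 37 higher and 2 lower, median 0.00), of apoptosis regulators (2 of 22 lower, median -0.08) and of prostaglandin enzymes (0 of 6, median -0.12).

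**Figure D4:**
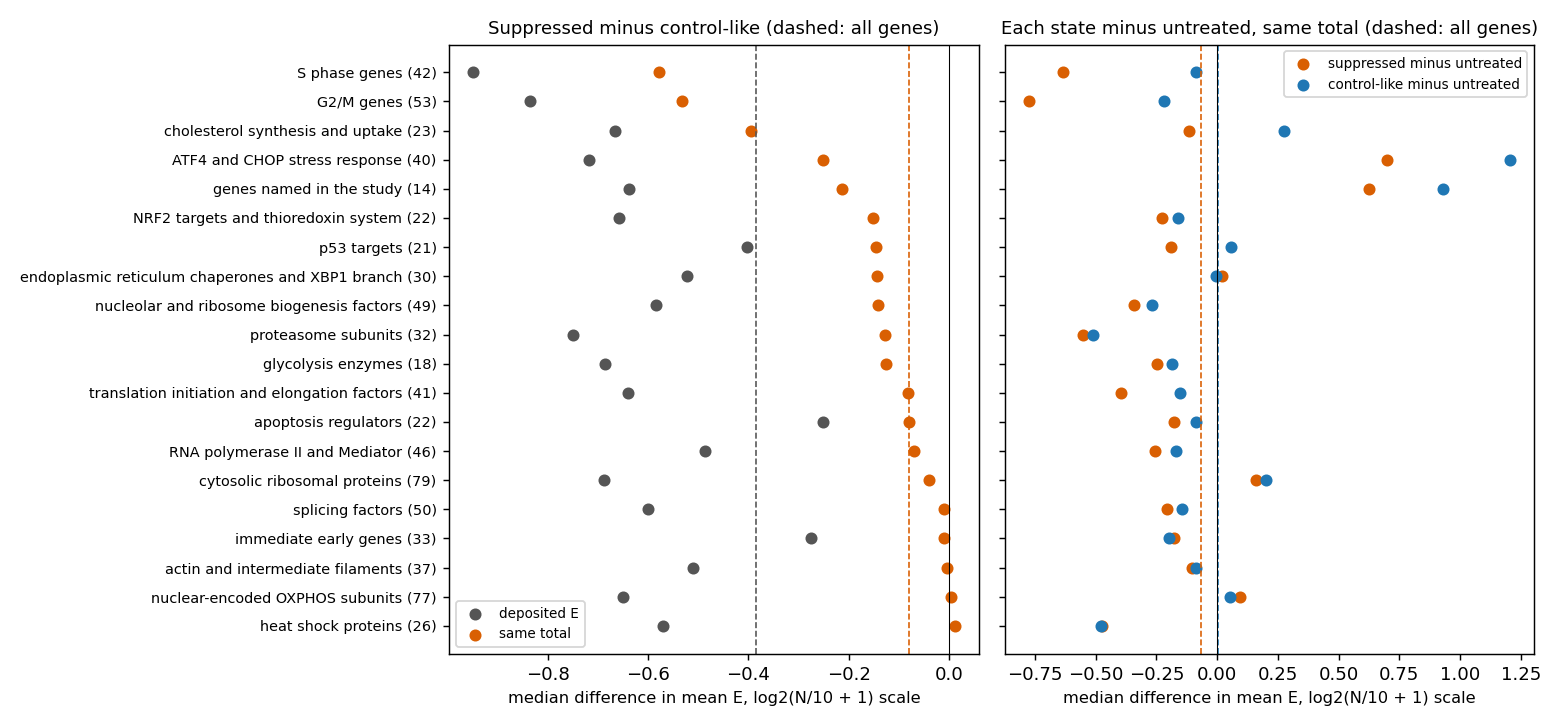
Median difference in mean E over the measured genes of each list of 10 or more (number of genes in parentheses), between suppressed and control-like cells on both scales (left) and between each state and untreated cells at the same total (right), with dashed lines at the medians over all genes. The S phase and G2/M medians (-0.58 and -0.53) lie farthest below the other lists at the same total, and the ATF4 and CHOP list lies above untreated cells in both states (0.70 and 1.20).

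Against untreated cells, G2/M genes were lower more often than all genes in both states, and S phase genes in suppressed cells. The share of S phase genes lower in control-like cells was near that of all genes. At the same total, where 14.8% of all genes were lower in suppressed and 6.76% in control-like cells, 35 of 53 G2/M genes were lower than in untreated cells in suppressed cells and 13 of 53 in control-like cells (medians -0.78 and -0.22), and of the S phase genes 26 and 4 of 42 (medians -0.63 and -0.09). Of 32 proteasome genes, 15 and 12 were lower. Of 14 genes named by the study, 1 was higher and 1 lower between the states, beside 1.3% and 8.61% of all genes. Of the 14, 7 were higher in suppressed than in untreated cells, beside 3.98% of all genes. IFITM1 and IFITM2 are membrane proteins that restrict virus entry. They were above untreated cells by 1.95 and 1.77 in suppressed and by 1.92 and 1.75 in control-like cells. Between the states they differed by 0.03 and 0.02. S100A4, a calcium-binding protein, was above untreated cells by 1.18 and 1.35. ACACA, the first enzyme of fatty acid synthesis, was higher in suppressed cells alone, at 2.75 against 2.01 in control-like and 2.07 in untreated cells. TNFRSF1A, a receptor of tumour necrosis factor, was 1.27 in suppressed, 1.90 in control-like and 1.01 in untreated cells. GAPDH was below untreated cells in both (8.56 and 8.86 against 9.81).

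The 4 activation cells stood at the other end of abundance. Their log2 abundances were 0.28, 0.34, 0.44 and 1.09, and they had between 7228 and 8156 genes detected. Of these cells 3 had G2/M means between 3.96 and 4.45 and the fourth 1.92, and all 4 had an S phase mean of 2.37 to 2.93. Their ATF4 and CHOP mean was 2.82 to 3.67, above every untreated cell (highest 2.61). They lay at capture sites 4, 18, 22 and 26. Whether a site held more than 1 cell was not tested, since doublet callers need read counts.

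Capture site, read from the number in the sample label and a measure that the annotation did not use, differed between the states. At sites 1 to 48, 9 of 29 cells were suppressed (31.0%, exact 95% interval 15.3 to 50.8), and at sites 49 to 96 it was 24 of 34 (70.6%, 52.5 to 84.9). The intervals cover counting error only. The median log2 abundance was -0.40 at the lower and -0.93 at the higher sites. Within the lower sites, suppressed and control-like cells had medians of -0.81 and -0.37, and within the higher sites -1.04 and -0.40. The annotation was made from values that carry abundance, so these differences only describe it. Paclitaxel at 16 h had 23.8% suppressed at sites 1 to 48 and 74.3% at sites 49 to 96, and paclitaxel at 48 h 40.9% and 51.6%. The control-like untreated cells had median abundances of -0.00012 and 0.05 at the same sites, and the cells with 16 h of celecoxib -1.58 and -1.29, higher at the higher sites. The capture code and the condition cannot be told apart.

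**Figure D5:**
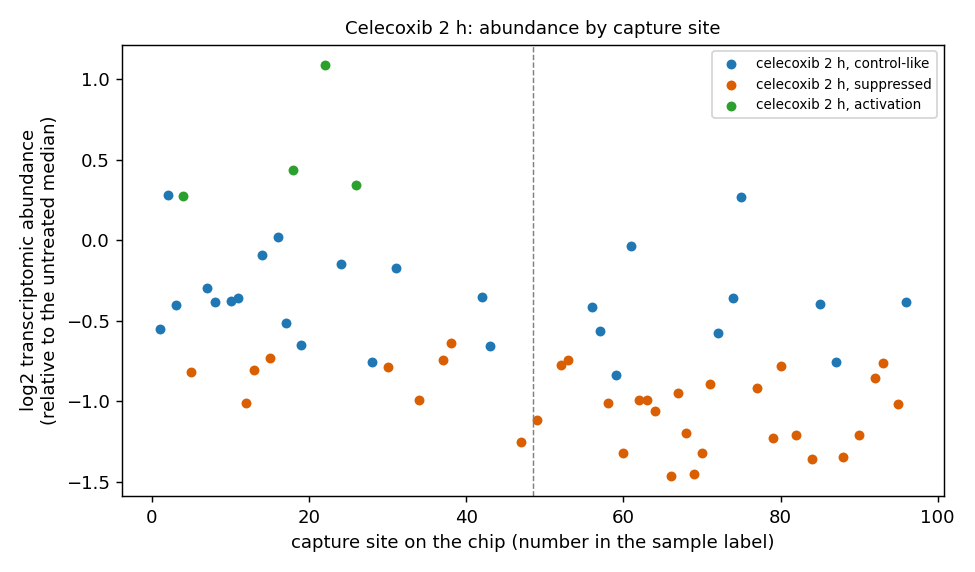
Log2 transcriptomic abundance of each cell with 2 h of celecoxib against the number of its capture site, colored by annotated state, with a dashed line between sites 48 and 49. Suppressed cells are 9 of 29 to the left and 24 of 34 to the right, and the 4 activation cells are all to the left.

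The cell cycle differences were also unlike at the lower and the higher sites, a split chosen after seeing the data. There were 9 suppressed and 16 control-like cells at the lower sites, and 24 and 10 at the higher ones. With so few cells the values carry little precision, and a dependence on the site was not tested. At sites 1 to 48 the S phase list median between the states was -0.98 and the G2/M median -0.23, with -0.03 over all genes. At sites 49 to 96 they were -0.32 and -0.95, with -0.11 over all genes. PCNA differed by -2.40 at the lower and by -0.13 at the higher sites, and CCNB1 by -0.91 and -2.09. SMC4 was lower in both (-1.80 and -1.85), as were ATG5 (-1.38 and -1.36) and MPC1 (-1.49 and -1.30). The ATF4 and CHOP median was 0.21 at the lower and -0.57 at the higher sites.

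The same comparison in paclitaxel cells, which share no cell with these but were annotated by the same forest, gave lower medians in suppressed cells at the same total for 4 of the lists. For S phase they were -0.60 at 16 h and -0.52 at 48 h, for G2/M -0.71 and -0.37, for ATF4 and CHOP targets -0.41 and -0.26, and for cholesterol -0.31 and -0.35, beside -0.09 and -0.08 over all genes. Other lists differed in sign: the ribosomal median was -0.04 with celecoxib, 0.13 with the shorter paclitaxel treatment and -0.01 with the longer one, and the heat shock median was 0.01, -0.26 and -0.25. Across the 8802 genes, which are not independent replicates, the differences of 2 h celecoxib and of paclitaxel had a Pearson's r of 0.30 (Spearman's rho 0.26) at 16 h and of 0.23 (0.20) at 48 h. The same forest made both splits, so these correlations are not independent support. Suppressed paclitaxel cells also had fewer genes detected, with medians of 5840 against 6490 at 16 h and 5871 against 6572 at 48 h. Single genes did not all carry over. IMMP2L (-1.11 and -1.12), SMC4 (-0.65 and -0.94) and PCNA (-1.72 and -1.09) were lower in suppressed paclitaxel cells too, whereas ZMAT5 was -0.37 and 0.28 and TMSB4X 0.94 and -0.28.

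The annotation itself had cells near its borders. A forest of 200 trees rebuilt on the deposited E-values of the same reference conditions gave 53 of the 63 cells their annotated state: 27 of 33 suppressed, 22 of 26 control-like and 4 of 4 activation cells. Its share of votes for suppression was between 0.355 and 0.825 in suppressed cells and between 0.015 and 0.42 in control-like cells, and in 12 cells the highest shares lay within 0.1 of each other. Rebuilt on same-total E-values, the forest called 61 of the 63 cells activation and 2 suppressed.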

How the data were processed

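The authors ran Trim Galore and then RSEM 1.3.0 with Bowtie2, all named in the submitters' processing notes too, on GENCODE transcripts of hg38 plus spike-in RNAs. They divided the TPM of a cell by that of the most abundant spike-in, left out cells with poorly detected housekeeping genes, and deposited log2 values, E = log2(N/10 + 1), with a predicted state per cell. Of 66 deposited samples with 2 h of celecoxib 63 cells were in the table. Read counts per cell were not used here, so the depth is unknown.

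N was recovered from E, and for the same-total scale divided by the cell's sum and multiplied by the median sum of all cells. Genes with E above 0 in over 30% of the 63 cells were kept (8802), and differences between means of E were called past log2 of 1.5. The states came from the values compared, so no test was made. The steps were tested on simulated data. The rule for named genes took the 10 largest differences in each direction per scale (among genes detected in 30% or more of the cells of each state), the 3 highest and the 2 most different members of each of 28 lists, and genes named by the study, and the text names a part of these. MCM7, PCNA, CDC20, DDIT3 and DDIT4 were chosen after their values were seen, as were the promoter motifs. The members, lists and tests were chosen with earlier results of these data known. The scripts ran in Python 3.11.15 (pandas 2.3.3) and the forests in R 4.3.3 (package randomForest 4.7.1.2).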

Additional observations from a re-analysis of the deposited data

How the results depend on the processing

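The settings were varied 1 at a time, and the capture sites were added as a choice after seeing the data. The difference in median log2 abundance stayed between -0.66 and -0.44 under the alternatives run for it, to which the shared abundance range, chosen on abundance itself, does not belong. On the deposited scale the genes higher numbered 142 with a pseudocount of 1, 41 as ratios of linear means, 72 with medians over cells, 20 with states of the rebuilt forest, 1315 in the shared abundance range, 294 at capture sites 1 to 48 and 69 at sites 49 to 96. The genes lower numbered 5068 with a pseudocount of 1 and 1164 in the shared range. At the same total the genes higher numbered 486 with a pseudocount of 1, 426 as ratios of linear means, 311 with medians, 1413 in the shared range, 734 at sites 1 to 48 and 318 at sites 49 to 96. The genes lower numbered 2669, 377 and 1519 under the first 3 of these settings, 1169 in the shared range and 1296 at sites 49 to 96. Of all genes past the limit, the share higher was 53.05% in the shared range and 11.08% at sites 1 to 48 as deposited. At the same total it was 53.05% as ratios of linear means, 54.73% in the shared range and 39.98% at sites 1 to 48, beside 13.1% as reported. In the shared range the list medians turned to 0.27 (S phase), 0.33 (G2/M) and 0.13 (ATF4 and CHOP), and the last was 0.21 at sites 1 to 48. Of 61 genes named here, only the 49 past 1.5-fold as deposited were counted for a turn in sign. In the shared range as deposited 14 of these turned: CCNB1 (0.27), NASP (0.29), HELLS (0.43), MCM7 (1.62), MRPL36 (1.18), PCNA (1.09), NDC80 (0.25), CDC20 (1.47), ASNS (0.10), WARS (0.085), DDIT3 (1.31), HERPUD1 (0.93), IFITM2 (0.52) and S100A4 (0.018). At sites 1 to 48 CDC20 (0.15), DDIT3 (0.16) and HERPUD1 (0.41) turned, at the same total RPL41 (0.019) and IFITM2 (0.015), and with rebuilt states COL3A1 (-0.077). The cause was not tested. States from the forest at the same total left 0 control-like cells, so that no difference could be computed. None of the wells of these cells was noted as empty or debris, so leaving such wells out changed nothing. No paired analysis was possible because the states have no replicate numbers.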
